A study of Mus musculus with 6 samples.

Results

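The nicotinic acetylcholine receptor subunits measured here were the 10 genes *Chrna1*, *Chrna2*, *Chrna3*, *Chrna4*, *Chrna5*, *Chrna7*, *Chrna9*, *Chrnb1*, *Chrnb2* and *Chrnb4*. The members were all probes of the array, other than control spots, whose gene name in the scanner files was exactly one of these 10 symbols. They were 10 of 36163 gene names in the files, and 11 of the 55681 probes that were not controls. *Chrna1* had 2 probes and the other 9 genes had 1 each. The genes were proposed with the comparison of the diets already seen, so every difference between diets of these 11 probes is given as a description without a test. The hearts came from male C57BL/6 mice fed either a high fat diet (HFD), with 60% of its kcal from fat, or a normal diet (ND) of standard chow. Feeding began at 4 weeks of age and lasted 4 months in both groups, and the labels give no transgene or other agent for either. There were 3 ND and 3 HFD hearts, each on 1 Agilent mouse array read in 1 colour (Cy3). The labels do not say which chambers were taken or whether animals were pooled, and p-values measure only the spread between these samples.

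Nicotinic receptors are ion channels built of several subunits that open when acetylcholine binds. The muscle type of the neuromuscular end plate holds the *Chrna1* and *Chrnb1* products together with delta and with gamma or epsilon subunits. Neurons of autonomic ganglia, those of the heart among them, use mainly receptors with the alpha3 and beta4 subunits, often with alpha5, and these genes lie side by side in a cluster on the chromosome. The alpha4 and beta2 subunits form the main receptor of the brain, alpha7 and alpha9 can form receptors of a single kind of subunit, and alpha2 is a neuronal alpha subunit with a narrow pattern of expression in the brain. The slow effect of the vagus nerve on the heart muscle itself runs through muscarinic receptors, which are not part of this gene family.

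The probes for 4 of these genes were bright enough to be compared between diets, and the ends of their sequences are shown because all values that follow rest on what these probes bind. Each probe was 60 bases long and the last 30 bases are printed, 5′ to 3′, as the scanner files give them, with the motif AATAAA in capitals. AATAAA is the usual signal for cleavage and polyadenylation of a transcript.
Chrna2: tgtcaaAATAAAgctaaaatgtctgccgtc
Chrnb1: acaggtttcagcctgaatcatctgccccgg
Chrna1: acacttaccaaacatgcagtgttctacatg
Chrnb4: agtgttttgtttttagaattaacctacaat

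Of the 11 probes, only that of *Chrna2* held AATAAA as printed, and none held its reverse complement TTTATT. Among all 55681 probes, 10.1% held AATAAA as printed and 3.74% held TTTATT. A match of these letters is a description and does not show where the transcript ends.

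On the mm9 build used by the files, the *Chrna2* probe (A_55_P2177513, transcript NM_144803) lay at chr14:66771724-66771783 on the plus strand. The *Chrnb1* probe (A_51_P475342, NM_009601) lay on the minus strand between chr11:69598674-69599242. Its 60 bases were spread over 569 bp of the genome, so it was assembled from more than 1 genomic piece. The 2 probes of *Chrna1* (NM_007389) lay on the minus strand, A_52_P533707 at chr2:73404112-73404171 and A_55_P2130987 at chr2:73401389-73401448. The *Chrnb4* probe (A_55_P2182835, NM_148944) lay at chr9:54875985-54876044 on the minus strand. It shared its stretch of chromosome 9 with the probes of *Chrna3* (A_55_P1989474, NM_145129, chr9:54859230-54859289, minus strand) and *Chrna5* (A_55_P2112877, NM_176844, chr9:54854309-54854368, plus strand). The other probes were A_52_P350750 of *Chrna4* (NM_015730, chr2:180757309-180757368), A_51_P108228 of *Chrna7* (NM_007390, chr7:70244005-70244064), A_51_P381069 of *Chrna9* (NM_001081104, chr5:66368450-66368509) and A_52_P222026 of *Chrnb2* (NM_009602, chr3:89557860-89557919). All 11 transcripts carried the same symbol in RefSeq (assembly GRCm38.p6). Which exon or untranslated region each probe lies in was not determined, since no mm9 annotation was used here.

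The intensity of a spot is its brightness after the authors' software subtracted the background, on a linear scale, and a probe was called present in a heart when the software rated it well above background. On each array 49.2% to 53.0% of all probes reached that rating, and no spot was saturated. The arrays shared 1 slide of 2 rows. Row 2 held HFD 3 and the 3 ND arrays, and row 1 held the other two HFD arrays, so the values within row 2 compare HFD 3 with the ND hearts. The 8 heart muscle markers (*Myh6*, *Tnnt2*, *Tnni3*, *Actc1*, *Myl2*, *Myl3*, *Ryr2* and *Pln*) were well above background on every array, which matches the label of heart tissue. Bulk tissue cannot separate fewer cells of a type from less RNA per cell, and this holds for every level given here.

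Of the 11 probes, 2 were well above background in all 6 hearts, *Chrna2* and *Chrnb1*. Another 2 were well above background in some hearts, the first *Chrna1* probe and that of *Chrnb4*. The remaining 7 were well above background in no heart, and their intensities lay between 3.62 and 14.4. These 7 covered the second *Chrna1* probe and *Chrna3*, *Chrna4*, *Chrna5*, *Chrna7*, *Chrna9* and *Chrnb2*. A probe entered the comparison of the diets when it was well above background in every heart of at least 1 diet, which left 4 of the 11.

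**Figure D1:**
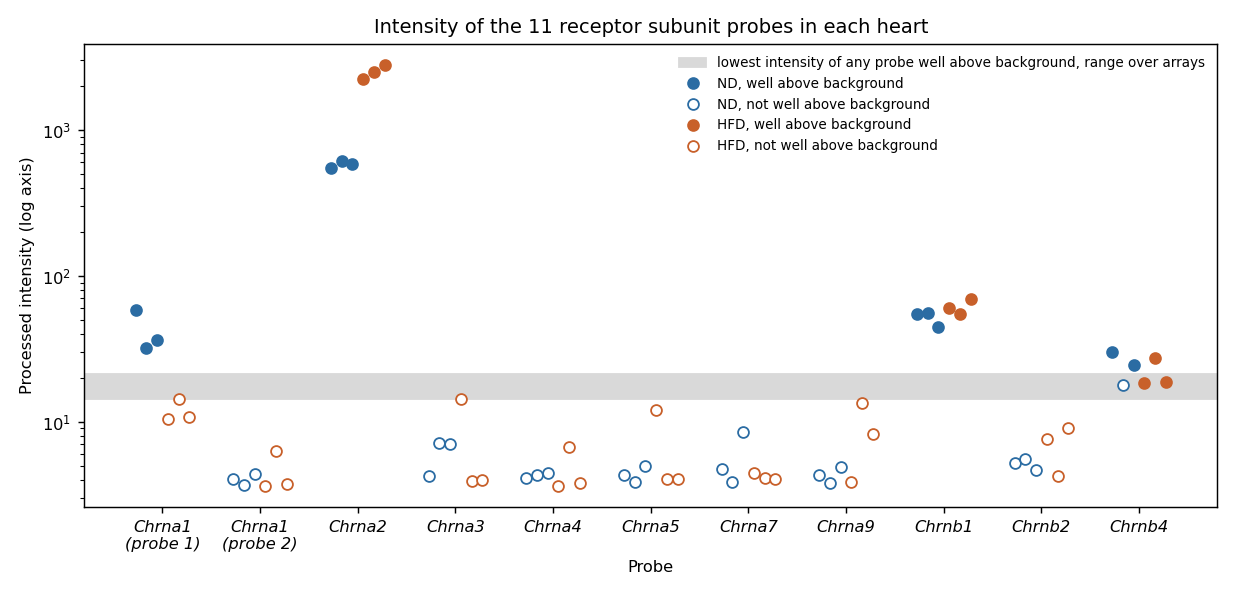
Processed intensity (log axis) of the 11 receptor subunit probes in each of the 3 ND (blue) and 3 HFD (orange) hearts, in the order of heart 1 to 3 within each diet. Filled points were well above background and open points were not, and the grey band spans the lowest intensity that any probe well above background had on the 6 arrays (14.4 to 21.1). The *Chrna2* probe lies far above the band in every heart and higher in HFD, while 7 probes lie below it with open points only.

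*Chrna2*, the alpha2 subunit, had higher levels in the HFD hearts. Its intensities were 545, 609 and 589 in the ND hearts and 2246, 2500 and 2784 in the HFD hearts. Every HFD heart was above every ND heart, and the lowest HFD value lay well over the highest ND value. To compare hearts, each log2 intensity was set against the 75th percentile of its array. On this scale the *Chrna2* level was 0.26 ± 0.10 (SD, n = 3) in ND and 2.31 ± 0.17 (SD, n = 3) in HFD. The log2 difference, HFD minus ND, was 2.05 with a standard error of 0.11, a 4.14-fold higher level in HFD. It ranked 11 by the size of the increase among the 27590 probes compared. Within slide row 2, HFD 3 was 2.09 log2 units above the mean of the ND hearts.

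The *Chrna2* probe was a single spot on each array, so its 6 values have no repeat within a heart. The software put the error of these spots at 54.6 to 61.0 intensity units in the ND hearts and at 225 to 278 in the HFD hearts. As a measure of how far spots of 1 probe differ, 80 probes with 10 spots each and intensities within the range of the *Chrna2* probe had a median SD between spots of 0.047 on the log2 scale, and at most 0.12. Spots marked as outliers were left out of these SDs, so they do not show how far an unscreened spot can lie from the others.

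*Chrna1* and *Chrnb1* encode the alpha1 and beta1 subunits of the muscle type receptor, and both were dim. The first *Chrna1* probe had intensities of 58.5, 31.8 and 36.3 in the ND hearts and of 10.4, 14.3 and 10.8 in the HFD hearts. It was well above background in 3 of 3 ND hearts and in 0 of 3 HFD hearts, and the diets did not overlap. Its log2 level was −3.57 ± 0.45 (SD, n = 3) in ND. Because no HFD heart was well above background, no fold between the diets is given. The mean of the ND hearts was 2.45-fold above the lowest signal of any probe well above background on each HFD array. All 3 HFD values lay below that signal. It is not a strict limit, since a spot above it can lack the rating. With normexp background correction, which adds an offset of 50, the measured log2 difference was −0.51, a smaller difference than that 2.45-fold. Within slide row 2, HFD 3 (10.8) was below the ND hearts (31.8 to 58.5).

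The second *Chrna1* probe, placed elsewhere on the same transcript, was well above background in no heart. It had intensities of 4.06, 3.67 and 4.42 in ND and of 3.62, 6.33 and 3.75 in HFD. The 2 probes of the gene therefore did not show the same thing, and the lower level of *Chrna1* rests on 1 dim probe.

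*Chrnb1* was dim but well above background in every heart. The ND hearts had intensities of 55.0, 55.4 and 44.3 and the HFD hearts of 60.0, 54.7 and 69.6, and these overlapped. After scaling to the 75th percentile the log2 levels of the diets no longer overlapped, at −3.23 ± 0.17 (SD, n = 3) in ND and −3.04 ± 0.070 (SD, n = 3) in HFD. The log2 difference was 0.20 (SE 0.10), of the order of the SD among the ND hearts. It was 0.27 within slide row 2.

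*Chrnb4* encodes the beta4 subunit of ganglionic receptors. Its probe lay close to the limit of detection, with intensities of 30.05, 18 and 24.5 in ND and of 18.6, 27.4 and 18.7 in HFD. It was well above background in 2 of 3 ND hearts, ND 2 being the exception, and in 3 of 3 HFD hearts. The log2 levels were −4.35 ± 0.37 (SD, n = 3) in ND and −4.57 ± 0.45 (SD, n = 3) in HFD, a log2 difference of −0.22 (SE 0.28) with overlap between the diets. Within slide row 2 it was −0.51.

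**Figure D2:**
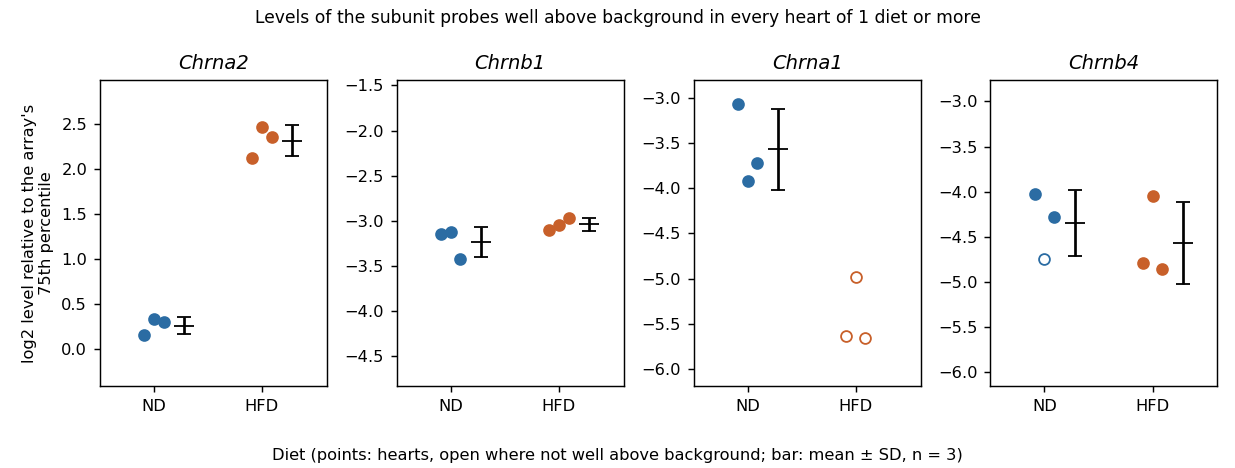
log2 level relative to the array's 75th percentile of the 4 probes compared, with 1 point per heart and the mean ± SD (n = 3) of each diet beside the points. All panels span the same number of log2 units, around a different centre, and levels are not comparable between probes. Open points were not well above background, and no mean is drawn for *Chrna1* in HFD, where all 3 points are open. *Chrna2* differs by 2.05, *Chrnb1* by 0.20 and *Chrnb4* by −0.22.

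Over all 27590 probes compared, 4 (0.0145%) passed the Benjamini-Hochberg adjustment of limma, all higher in HFD, and no such call is given for the subunits. The diets did not overlap for 3 of the 4, against 19.0% of all probes compared, with 2 of them higher in HFD (7.92% of all) and 1 lower (11.1%). Nothing is read from this count, since the genes were chosen from this comparison. With each heart left out in turn, the *Chrna2* log2 difference lay between 1.98 and 2.15.

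The ganglionic subunits next to *Chrnb4* were not seen. *Chrna3* had intensities of 4.24, 7.13 and 7.09 in ND and of 14.4, 3.94 and 3.98 in HFD. *Chrna5* had 4.35, 3.89 and 4.99 in ND and 12, 4.05 and 4.06 in HFD. For both genes HFD 1 had the highest of the 6 values, still not well above background. A gene at this level was not detectable here, which is not the same as being absent.

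The brain type subunits *Chrna4* and *Chrnb2* were also not well above background in any heart. *Chrna4* ranged from 3.65 to 6.67 and *Chrnb2* from 4.22 to 9.01. A probe outside the rule, A_66_P101862, is described in the files as *Chrna4* but named by its transcript (ENSMUST00000108851, chr2:180753095-180753154, minus strand). This probe was well above background in all 6 hearts, with intensities of 101, 58.0 and 103 in ND and of 101, 56.6 and 66.3 in HFD. Its log2 difference was −0.29 (SE 0.29) and the diets overlapped. The 2 *Chrna4* probes thus differed in whether anything was detected, and which of them reports the receptor transcript was not tested.

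*Chrna9* ranged from 3.80 to 13.4, with its 2 highest values in HFD 2 and HFD 3, and was well above background in no heart. *Chrna7*, the subunit through which acetylcholine acts on macrophages, was the 1 subunit whose probe was printed in 10 spots. The median over the 10 spots was 4.21, 3.80 and 4.93 in the ND hearts and 3.80, 3.90 and 3.94 in the HFD hearts. Of these 60 spots, 1 was well above background, at 120 on the ND 3 array, where the median was 4.93. The software marked that spot as an outlier. It was left out of the scaled levels but is among the 10 spots of the median given here. A further probe described as *Chrna7* and named by its transcript (ENSMUST00000064671, A_55_P2137010) was well above background in no heart, with intensities from 3.80 to 12.6.

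**Figure D3:**
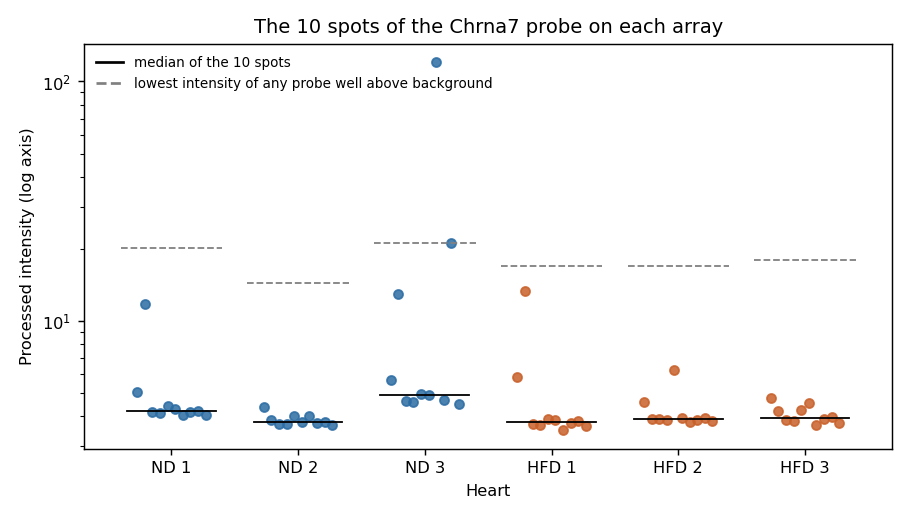
Processed intensity (log axis) of each of the 10 spots of the *Chrna7* probe on each array, outlier spots included, with the median of the 10 spots as a black line and the lowest intensity of any probe well above background on that array as a dashed line. The medians lie between 3.80 and 4.93. The highest spot, at 120 in ND 3, was marked as an outlier, as were the highest spots of ND 1, HFD 1 and HFD 2. Another ND 3 spot, at 21.2, lies just over the dashed line.

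Of the other 6 subunits of the family, no probe was well above background in every heart of a diet, so none was compared. *Chrna10*, the partner of alpha9, was well above background in 4 of 6 hearts (ND 1, ND 3, HFD 1 and HFD 2). *Chrna6* was so in 3 hearts and *Chrnb3* in 2, both of them ND. The end plate subunits *Chrnd*, *Chrne* and *Chrng*, which complete the muscle receptor around alpha1 and beta1, were well above background in no heart.

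The genes that assemble, anchor and supply nicotinic receptors were compared in the same fit. Together with the 6 other subunits, the lists held 29 genes with 42 probes, of which 23 probes of 17 genes could be compared. After adjustment 0 of the 23 passed in limma and 0 in the methods' t-test. At an unadjusted p below 0.05 there were 4 (17.4%) in limma, all higher in HFD, and 2 in the methods' t-test, against 3275 of 27590 probes (11.9%) overall in limma, 1445 of them higher (5.24%). The median log2 difference of the 23 was 0.049, against −0.0081 over all probes.

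Among the 4, a pair of probes belonged to *Slc44a1*, a choline transporter. Its probe A_52_P84901 had intensities of 1889, 1706 and 1828 in ND and of 2228, 2079 and 2239 in HFD. The log2 difference was 0.21 (SE 0.077, limma adjusted p = 0.376) and the diets did not overlap. Its probe A_55_P2048041 gave 0.22 (SE 0.083, limma adjusted p = 0.391), again without overlap. A dimmer probe of the gene gave 0.35 (SE 0.31) with overlap. Neither passed the adjustment.

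*Slc18a3*, which loads acetylcholine into vesicles, had intensities of 57.0, 50.3 and 57.6 in ND and of 64.8, 63.1 and 85.3 in HFD. The diets did not overlap, and the log2 difference was 0.30 (SE 0.11, limma adjusted p = 0.381). *Lypd6*, a membrane-bound protein that binds nicotinic receptors, had a log2 difference of 0.71 (SE 0.25, limma adjusted p = 0.371) for probe A_52_P376169, with overlap on the scaled levels. Its other probe gave 0.58 (SE 0.33) with overlap.

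The brightest gene in each list is given as the rule for naming asked. *Rapsn*, the protein that clusters the muscle receptor, had intensities of 12587, 11547 and 12631 in ND and of 12484, 12570 and 14283 in HFD, a log2 difference of 0.038 (SE 0.083, limma adjusted p = 0.897). *Lynx1*, which binds nicotinic receptors and dampens their response, had intensities of 35556, 34387 and 36867 in ND and of 36240, 29141 and 32988 in HFD for its bright probe. Its log2 difference was −0.18 (SE 0.083, limma adjusted p = 0.464), without overlap of the scaled levels. The dimmer *Lynx1* probe gave 0.068 (SE 0.10) with overlap. *Bche*, butyrylcholinesterase, had a log2 difference of −0.18 (SE 0.099, limma adjusted p = 0.547) with intensities from 1903 to 2578.

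The other genes compared were *Agrn*, *Lrp4*, *Dok7*, *Nrg1* and *Colq* of the end plate, *Ric3*, *Tmem35* and *Slurp1* of receptor assembly and modulation, and *Chat*, *Ache* and *Prima1* of synthesis and breakdown. None of them had an unadjusted p below 0.05. Their lowest differences, also the lowest of these lists, were −0.46 for *Ric3* (SE 0.44) and for *Tmem35* (SE 0.24). Their highest was 0.59 for *Slurp1* (SE 0.43), and the diets overlapped in all of these probes. *Chat*, which makes acetylcholine, had a log2 difference of −0.010 (SE 0.18). *Musk* and *Erbb3* of the end plate, *Ly6h*, and the neuronal choline transporter *Slc5a7* were well above background in no heart.

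**Figure D4:**
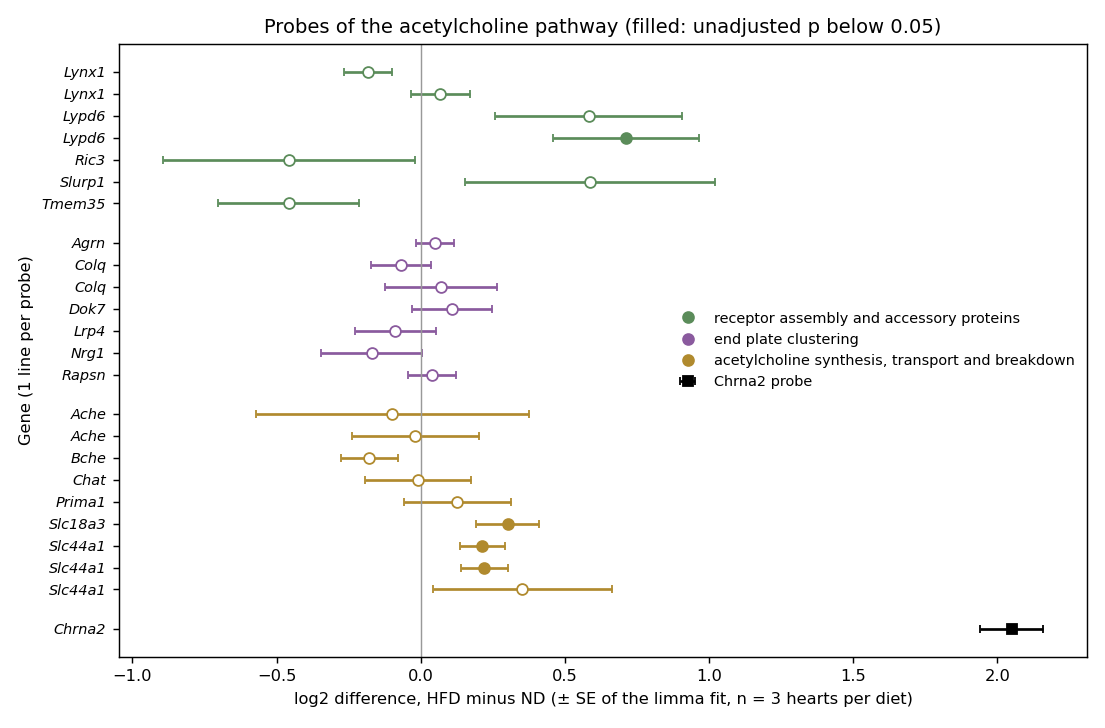
log2 difference, HFD minus ND, of the 23 acetylcholine pathway probes compared (circles, coloured by list) and of the *Chrna2* probe (black square), with the SE of the limma fit as bars, n = 3 hearts per diet. *Colq* belongs to 2 lists and is drawn once, and filled circles had an unadjusted p below 0.05. The 23 probes lie between −0.46 and 0.71, below *Chrna2* at 2.05.

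The genes beside *Chrna2* on chromosome 14 were compared in the same fit. Within 500 kb of the *Chrna2* probe lay 18 probes, and 14 of them, of 10 genes, could be compared. After adjustment 0 of the 14 passed in limma and 0 in the methods' t-test. At an unadjusted p below 0.05 there were 3 in each, those of limma all higher in HFD, against 11.9% of all probes in limma.

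*Ptk2b*, which encodes a tyrosine kinase, was nearest. In RefSeq (GRCm38.p6) *Chrna2* lies between *Ephx2* and *Ptk2b*. The *Ptk2b* probes lay 0.685 and 1.03 kb from the *Chrna2* probe, on the opposite strand. The nearer had intensities of 330, 416 and 369 in ND and of 481, 271 and 335 in HFD, a log2 difference of −0.13 (SE 0.20, limma adjusted p = 0.837). The other had −0.034 (SE 0.072, limma adjusted p = 0.894). Neither *Ptk2b* probe had higher levels in HFD, and the diets overlapped in both.

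*Ephx2*, soluble epoxide hydrolase, lay on the other side, at −68.5 kb from the *Chrna2* probe. The ND hearts had intensities of 16119, 16839 and 14694 and the HFD hearts of 22436, 23481 and 26404, without overlap. The log2 difference was 0.54 (SE 0.094), and it did not pass the adjustment (limma adjusted p = 0.155). *Stmn4*, a stathmin that binds tubulin, lay 208.7 kb away. Its 2 probes, which overlap in position, gave 0.39 (SE 0.080, limma adjusted p = 0.207) and 0.41 (SE 0.074, limma adjusted p = 0.163), both without overlap between the diets.

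*Clu*, clusterin, at −171.4 kb, had intensities of 187384, 175561 and 159783 in ND and of 166446, 145898 and 149866 in HFD, and these overlapped. After scaling, its level was lower in every HFD heart than in any ND heart. The log2 difference was −0.24 (SE 0.097), and it did not pass the adjustment (limma adjusted p = 0.424). The probes of *Scara5*, *Scara3*, *Pbk*, *Ccdc25* and *Trim35* overlapped between diets, with differences from −0.037 to 0.35. An unnamed transcript (ENSMUST00000111120), well above background only in the HFD hearts, had intensities of 6.50 to 21.7 in ND and of 23.7 to 30.6 in HFD, and its scaled levels overlapped.

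**Figure D5:**
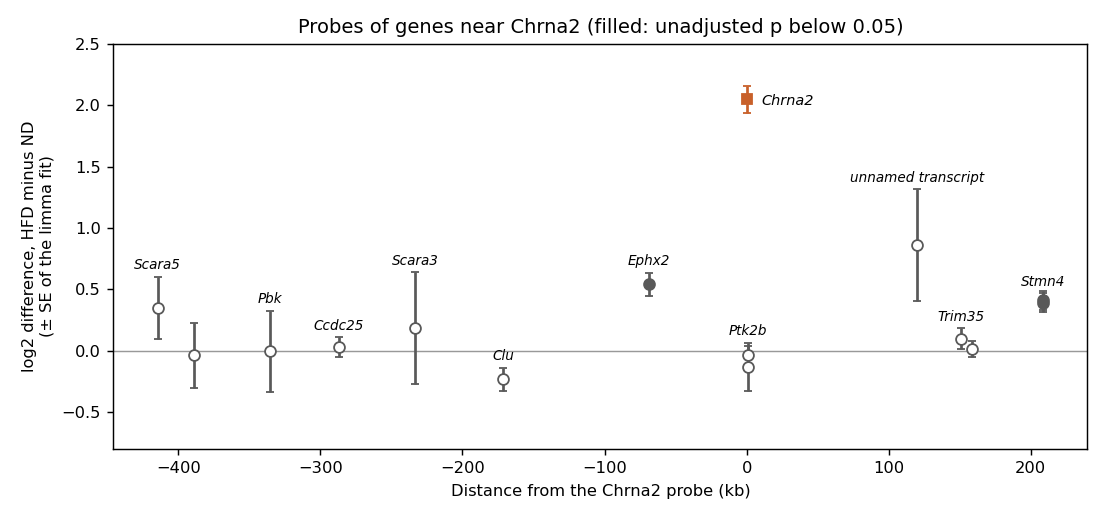
log2 difference, HFD minus ND, of the 14 probes compared within 500 kb of the *Chrna2* probe, against their distance from it in kb, with the SE of the limma fit as bars and filled circles for an unadjusted p below 0.05. Both *Ptk2b* probes, next to *Chrna2* (orange square, 2.05), lie at −0.13 and −0.034, and *Ephx2* and *Stmn4* lie between 0.39 and 0.54.

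The probes whose levels followed *Chrna2* most closely over the 6 hearts were, in order, 1 of *Msh3* (Pearson's r = 0.998), 1 of *Wdfy1* (r = 0.997), 1 each of *Thrb* and *Cgref1* (both r = 0.996) and another of *Wdfy1* (r = 0.995). They were the 5 highest among 19766 probes with a gene name, and all 6 points share their arrays and their diets with *Chrna2*. The log2 differences were 0.22 for *Msh3*, 0.23 for *Thrb*, 0.72 for *Cgref1* and 2.07 for the second *Wdfy1* probe, while the first *Wdfy1* probe was well above background only in the HFD hearts. When each heart was set against the mean of its own diet, the 5 probes with the highest r were different ones, of *Irs1*, *Fgf23*, *Rlim*, *Hnrnpa0* and *Sf3a1*, with r from 0.994 to 0.999. Among the subunits, the levels of *Chrnb1* had an r of 0.68 with *Chrna2*, those of *Chrnb4* −0.28 and those of the first *Chrna1* probe, not well above background in HFD, −0.93. These are descriptions of 6 hearts in 2 diets.

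Markers of other cells that use nicotinic receptors were read beside the subunits. For skeletal muscle, the cells of the end plate, 8 of 8 probes compared had lower levels in HFD, with a median log2 difference of −0.49 against −0.0081 over all probes. The summed level of the 11 genes was taken in multiples of the 75th percentile of the array. It was 24.38 to 27.4 in ND and 20.9 to 24.42 in HFD, so the diets overlapped. *Atp2a1* made up 55.8% to 69.9% of that sum. After adjustment 0 of the 8 passed in limma, and at an unadjusted p below 0.05 there were 3 lower, *Tnnc2*, *Mybpc2* and *Tnni2* (6.63% of all probes were lower at that limit). The defining genes of fast muscle fibres were at or near the limit of detection. *Mylpf* was well above background in no heart, *Myh1*, *Myh4* and *Actn3* in 1 each and *Myh2* in 2. Their part in the lower *Chrna1* probe was not tested.

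For nerve cells, where the alpha2 subunit is best known, the summed level of the 15 marker genes was 27.8 to 28.6 in ND and 31.5 to 33.3 in HFD. The brightest of them was *Snap25*, a synaptic protein, with a log2 difference of 0.20 (SE 0.084) and 58.5% to 68.9% of the sum. Of 10 probes compared, 6 were higher and 4 lower, and 0 passed the adjustment in limma. At an unadjusted p below 0.05 (5.24% of all probes higher and 6.63% lower), *Gap43* was higher (log2 difference 0.71, SE 0.28). At that limit *Th*, which marks sympathetic nerves (−0.25, SE 0.093), and *Stmn2* (−0.35, SE 0.10) were lower. Not every such marker went with *Th*, since *Dbh* (0.46, SE 0.27) and both *Ddc* probes (0.29, SE 0.24, and 0.29, SE 0.18) were higher. *Phox2a* was lower (−0.17, SE 0.15), and the diets overlapped for *Dbh*, *Ddc* and *Phox2a*. *Slc6a2* and *Syt1* were well above background in no heart. Of the 8 glial genes, *Fabp7* had a higher level at an unadjusted p below 0.05, *Gfap* was well above background in no heart, and the summed levels of the diets overlapped (2.84 to 4.25 in ND and 2.65 to 4.94 in HFD). The part of nerve and glial cells in the *Chrna2* difference was not tested.

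The remaining marker lists were read in the same way, and 0 of their probes passed the adjustment in limma. The red cell probes compared were all lower in HFD (6 of 6, 5 of them at an unadjusted p below 0.05, against 6.63% of all probes), with summed levels of 622 to 798 in ND and 399 to 554 in HFD. The brown and beige adipocyte genes summed to 51.7 to 55.4 in ND and 59.7 to 69.8 in HFD, with 2 probes higher and 1 lower at an unadjusted p below 0.05 of 5 compared (5.24% and 6.63% of all probes). *Cidea* made up 82.3% to 88.5% of that sum, while the defining *Ucp1* was well above background in 1 heart and *Elovl3* and *Tmem26* in none. The summed levels of the diets overlapped for macrophages (55.9 to 59.5 in ND and 57.0 to 59.6 in HFD, 1 of 12 probes lower at an unadjusted p below 0.05) and for heart muscle (3544 to 3614 in ND and 3160 to 3807 in HFD, 0 of 9). They also overlapped for atrial muscle (204 to 1004 in ND and 59.2 to 1190 in HFD, 0 of 6) and white adipocytes (3.15 to 7.04 in ND and 0.37 to 7.25 in HFD, 0 of 6), both lowest in HFD 2. The part of these cells in the subunit levels was not tested.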

How the data were processed

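RNA from 3 ND- and 3 HFD-fed mouse hearts was hybridized to 1-colour Agilent arrays. The intensities deposited by the authors had been background-subtracted within each array by Agilent Feature Extraction 10.7.1.1 and not normalized between arrays. The authors also deposited log2 values of the same arrays whose normalization is not given in the sources used here, and they served as an alternative. Probe positions refer to mm9, and the gene symbols come from the design of the array.

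Control spots were removed. The scaled levels also left out the 127 to 190 spots per array that the software marked as outliers, while the intensities kept them. The log2 intensities of 1 probe were averaged, and each array was scaled by subtracting its 75th percentile. A probe counted as well above background when a share of at least 0.5 of its spots had that flag. Probes that met this in every heart of at least 1 diet were fitted in limma 3.58.1 (R 4.3.3, data.table version 1.17.8, jsonlite 2.0.0, lmFit and eBayes, two-sided), with Benjamini-Hochberg adjustment over 27590 probes, and 3 hearts per diet limit the precision. Arrays of 1 diet correlated at r = 0.990 to 0.995, and each counts as 1 replicate. The code was tested on simulated data. Figures used Python 3.11.15 and matplotlib 3.10.9.

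The subunits and gene lists were chosen with earlier results of these data known. The 13 lists cover other receptor subunits, assembly and accessory proteins, end plate clustering, acetylcholine supply, nerve, glia, skeletal, atrial and heart muscle, macrophages, white and brown or beige adipocytes and red cells. For 1 gene of these lists no separate value is reported here. Named are all subunits, acetylcholine pathway genes at an unadjusted p below 0.05 or with the highest level of their list, all genes compared within 500 kb of *Chrna2*, the 5 probes with the highest r and defining markers. The methods' t-test is the unpaired Student's test of the study, run on the same values. Tried as alternatives were normexp background correction (offset 50), quantile normalization, the authors' log2 values, a replicate block, the slide row, each heart left out, outlier spots kept, other filters on dim probes, an intensity trend with robust variances (statmod 1.5.0) and the methods' t-test.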

Additional observations from a re-analysis of the deposited data

How the results depend on the processing

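The *Chrna2* log2 difference stayed between 1.93 and 2.15 in the 13 settings that gave it a value, 1.98 to 2.15 with 1 heart left out. Not all of these could move it. The replicate block and the kept outlier spots leave this difference unchanged by design, and the slide row settings are the same contrast (2.09). Normexp correction adds an offset of 50. With it the measured *Chrna1* difference, with no HFD heart well above background, was −0.51 and the *Chrnb1* difference 0.059. An offset of this size by itself makes the log2 differences of such dim probes smaller. The part of the background in these values was not tested. With 1 heart left out, *Chrnb1* ranged from 0.098 to 0.25 and *Chrnb4* from −0.48 to −0.053. No such range is given for *Chrna1*, since no HFD heart was well above background for its probe. With the software's weaker test of a positive and significant signal, 4 of the 11 probes in place of 2 passed in all 6 hearts.

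The count of probes past the adjustment was 2 with quantile normalization, 2 with the authors' log2 table, 40 with normexp correction, 33 within slide row 2 (where the single HFD heart is assumed to vary like the ND hearts), 0 with the slide row as a term, 0 without a filter on dim probes, 81 with an intensity trend and robust variances, 8 with the methods' t-test, and 0 to 5 with 1 heart left out (0 without ND 1, HFD 2 or HFD 3). The acetylcholine pathway held 1 probe at an unadjusted p below 0.05 with the slide row as a term, 2 with normexp correction, 2 with the methods' t-test, and 0 to 6 with 1 heart left out (0 without HFD 2, and 2 without ND 1, ND 2 or ND 3). The neighbours of *Chrna2* held 5 within slide row 2 and 3 to 4 with 1 heart left out. The pathway and the neighbours had 0 probes past the adjustment in every setting.

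Hearts with the same replicate number did not all deviate together (correlations of −0.15, 0.15 and 0.19 for numbers 1, 2 and 3, and 0.19 between ND 1 and HFD 2), so the numbers were not used as pairs. With the replicate block, 0 probes passed the adjustment, 3 pathway probes and 4 neighbours had an unadjusted p below 0.05, and the subunit differences were as without it. For all of these, the cause was not tested. Signal over background limits the 7 subunit probes that were not well above background in any heart.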
